A study of Homo sapiens with 10 samples.

Results

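The regions described here are short stretches of chromatin away from promoters. A peak of the histone mark H3K27ac was called there in SKBR3 cells treated with the cytokine TWEAK, and not in untreated ones. A missing call does not show that the mark was absent. The peak lists of all 4 SKBR3 libraries were merged wherever peaks shared at least 1 bp, on chromosomes 1 to 22 and X. A merged region was kept if a peak of both TWEAK lists and of neither untreated list lay in it, if it was more than 1 kb from any transcription start site (TSS) of GENCODE release 44 (basic set), and if it was under 1500 bp wide. Of 62104 merged regions, 2865 were gained in this sense, which is 4.61% of all regions. Of these, 259 lay within 1 kb of a TSS, 693 were distal but 1500 bp or wider, and 1913 were narrow and distal (66.8% of the gained regions). The 1913 regions made up 6.56% of the 29151 narrow distal regions of SKBR3, whereas 611 narrow distal regions (2.1%) were lost, being present in both untreated lists and in neither TWEAK list. Because the regions were chosen by presence in these lists, their gain is given as a description, without a test.

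SKBR3 and MDA-MB-453 are established HER2 breast cancer cell lines. Each line was serum starved for 8 h in Opti-MEM and then left untreated or given TWEAK at 10 ng/ml for 48 h, with fresh cytokine at 24 h, and each of the 4 groups had 2 H3K27ac ChIP-seq libraries. Cells of each line carry the genome and rearrangements of 1 tumour, and nothing in the labels says whether the libraries of a group came from separate cultures. Read depth is unknown, since the values used are peak lists.

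H3K27ac is laid down by the acetyltransferases p300 and CBP at active promoters and enhancers, and a distal peak of this mark is commonly read as an active enhancer. TWEAK binds Fn14 (TNFRSF12A), a receptor of the TNF receptor family that recruits TRAF adaptors and feeds both branches of NF-κB signalling as well as the MAP kinases that drive AP-1. NF-κB dimers (RELA, RELB, REL, NFKB1 and NFKB2 products) bind the κB site, a 10-base element that opens with GGG, and AP-1 dimers of FOS and JUN proteins bind TGACTCA or TGAGTCA. Both kinds of factor bind enhancers as well as promoters.

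The DNA under the gained regions is shown first for 6 of them, as 150 bp of the hg38 plus strand around the κB match nearest the middle of each region, with every κB or AP-1 match in capitals. FAM205C and DNM3 are the genes nearest to the 2 regions that ranked highest in the TWEAK lists, IL21R and SGK1 are next to high-ranking regions in which both motifs stood close together, and ICAM1 and S100A8 are well known NF-κB target genes. All 6 hold a κB match and so do not stand for the gained regions in general. Of those, 23.2% held a κB match inside the region, and 44.7% held neither motif in the 1000 bp around the midpoint. The reference sequence is printed, and not the sequence of the cells.
FAM205C, chr9:34823949-34824098: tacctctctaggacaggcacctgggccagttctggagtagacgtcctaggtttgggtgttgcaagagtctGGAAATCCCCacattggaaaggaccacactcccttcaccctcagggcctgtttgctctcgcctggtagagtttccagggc
DNM3, chr1:172024633-172024782: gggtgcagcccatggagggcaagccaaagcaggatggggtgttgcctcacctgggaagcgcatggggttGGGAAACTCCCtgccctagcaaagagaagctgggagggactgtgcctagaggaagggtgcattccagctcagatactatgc
IL21R, chr16:27432681-27432830: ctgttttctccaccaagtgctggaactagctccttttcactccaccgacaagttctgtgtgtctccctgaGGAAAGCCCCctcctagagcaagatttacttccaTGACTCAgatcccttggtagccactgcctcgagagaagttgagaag
SGK1, chr6:134236106-134236255: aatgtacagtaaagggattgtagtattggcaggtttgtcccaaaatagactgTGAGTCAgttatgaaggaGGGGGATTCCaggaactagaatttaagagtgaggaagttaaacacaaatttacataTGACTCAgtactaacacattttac
ICAM1, chr19:10265414-10265563: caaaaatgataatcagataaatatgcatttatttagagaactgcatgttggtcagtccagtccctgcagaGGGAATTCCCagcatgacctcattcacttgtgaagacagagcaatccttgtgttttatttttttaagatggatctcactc
S100A8, chr1:153385050-153385199: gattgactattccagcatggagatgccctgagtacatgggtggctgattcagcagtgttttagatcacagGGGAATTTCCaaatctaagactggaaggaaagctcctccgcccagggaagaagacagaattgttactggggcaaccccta

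In the DNM3 stretch the capitals are 2 overlapping κB matches, which were counted as 2 sites. In the SGK1 stretch the κB match stood between 2 AP-1 matches, both inside the region.

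Which sequence motifs lay under the gained regions was asked next, since sequence took no part in choosing them. The 1000 bp around the midpoint of each region was searched on both strands for 12 motifs. The κB motif was found in 493 of the 1913 gained regions, or 25.8% (95% Wilson interval 23.9 to 27.8). It was found in 10.6% of the 611 lost regions (8.43 to 13.3), in 12.1% of the 4493 narrow distal regions present in all 4 lists (11.2 to 13.1) and in 13.7% of all narrow distal regions. The AP-1 motif was found in 720 gained regions, or 37.6% (35.5 to 39.8), against 18.2% of the lost regions (15.3 to 21.4), 29.4% of the regions in all 4 lists (28.1 to 30.8) and 27.2% of all narrow distal regions. Both shares were therefore higher in the gained regions than in each of these sets, with intervals that did not overlap. With TWEAK replicate 2 left out, the rule asked for a peak in TWEAK replicate 1 only and gave 4956 regions, which overlapped all 1913. The AP-1 share of the 4956 was 29.3%, no higher than that of the regions in all 4 lists, and their κB share was 21.1%. With TWEAK replicate 1 left out instead, the rule gave 8942 regions with an AP-1 share of 34.4% and a κB share of 18.8%. The intervals cover counting error only, regions are not replicates of a condition, and the search finds letters and not bound factors.

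Regions held by the same number of lists gave a comparison at like reproducibility. Of the 3400 narrow distal regions found in exactly 1 untreated and 1 TWEAK list, 9.62% held the κB motif (8.67 to 10.7) and 24.3% the AP-1 motif (22.9 to 25.8). Regions held by 1 TWEAK list alone lay between these and the gained regions, with 15.9% for κB (15.2 to 16.7) and 30.7% for AP-1 (29.8 to 31.7). Regions held by 1 untreated list alone were lower for both, with 11% (10.3 to 11.9) and 17.9% (17 to 18.9). A region that also had a peak in 1 untreated list, beside both TWEAK lists, held the κB motif in 14.2% of cases (12.8 to 15.8), well under the gained regions, but the AP-1 motif in 35.5% (33.5 to 37.6), with an interval that overlapped theirs. The κB motif was thus most frequent, among the 8 combinations of lists, where a peak was found in both TWEAK lists and nowhere else. It was not particular to narrow regions, since the 693 wide distal gained regions held it in 37.2% (33.7 to 40.9), more often than the narrow ones, and the AP-1 motif in 33.9% (30.5 to 37.5).

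**Figure D1:**
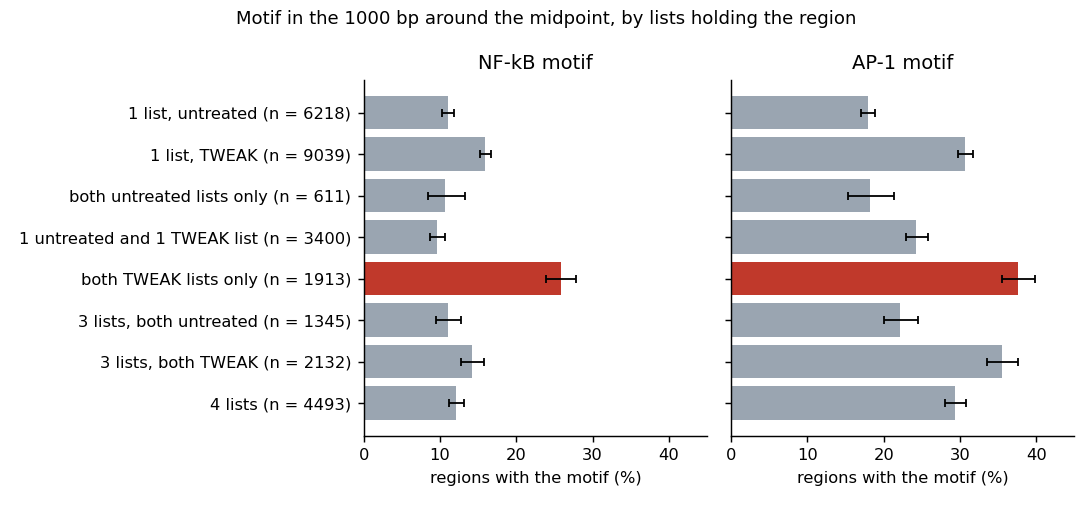
Percent of narrow distal SKBR3 regions with the κB motif (left) or the AP-1 motif (right) in the 1000 bp around the midpoint, by the lists that hold a peak there. Bars are shares, lines are 95% Wilson intervals, and the gained regions are in red, at 25.8% for κB and 37.6% for AP-1.

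The sites were not spread evenly over the regions. Within 200 bp of the midpoint the gained regions held 94.1 κB sites per 1000 regions on the left side and 88.3 on the right, and the number fell to between 15.2 and 25.1 in each 200 bp step farther than 600 bp from the midpoint. Expressed per kb, the central 400 bp held 0.453 κB sites per region and the stretch 1 to 2 kb away 0.101, a ratio of 4.47. The same ratio was 0.92 in the lost regions, 1.65 in the regions of all 4 lists and 1.79 in all narrow distal regions. The flanks of the gained regions were thus no richer in κB sites than those of the other regions (0.142 sites per kb beside lost regions and 0.103 beside regions of all 4 lists), and the difference lay in the middle. One gained region nearest to PRKAR1B had 21 κB matches in its window, the most of any, and without it the central ratio was 4.38.

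AP-1 sites were central as well, at 138 and 136 sites per 1000 gained regions in the 2 middle steps. The central density of 0.685 sites per kb was 4.04 times the flanking density. In the regions of all 4 lists AP-1 sites had a ratio of 3.14, nearer to that of the gained regions than was the case for κB sites, and in the lost regions a ratio of 1.41. The other 10 motifs had central ratios between 0.761 (GATA) and 2.03 (grainyhead) in the gained regions.

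**Figure D2:**
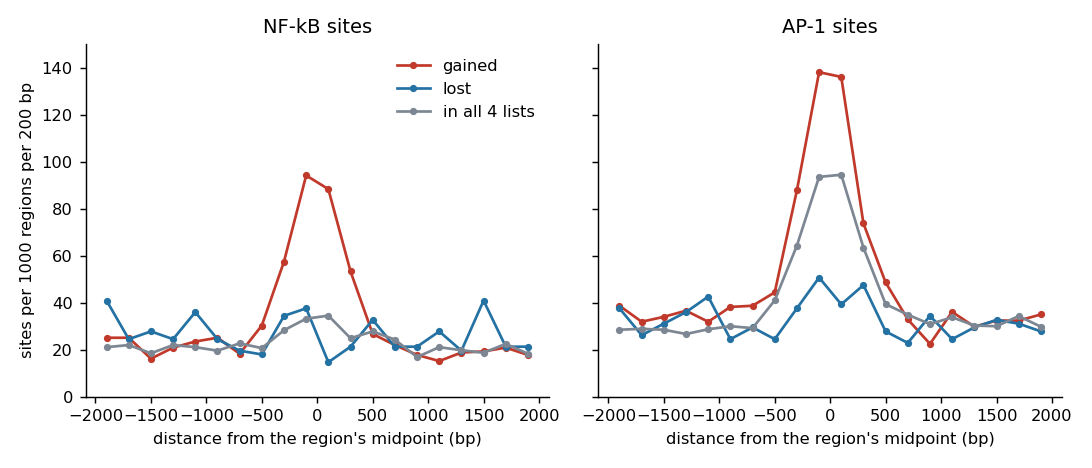
κB sites (left) and AP-1 sites (right) per 1000 regions in steps of 200 bp from 2 kb before to 2 kb after the midpoint of narrow distal regions. In the gained regions (red) κB sites reach 94.1 per 1000 regions beside the midpoint, while the lost regions (blue) stay between 14.7 and 37.6 in the 2 middle steps.

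Base composition differed between the sets, and the κB motif is rich in G and C. The median GC content of the 1000 bp window was 43.7% in the gained regions, 47.5% in the lost regions and 45.2% in the regions of all 4 lists. The narrow distal regions were divided at 41.6% and 47.5% GC into 3 classes of like size. In the low, middle and high class the κB motif was in 14.8%, 25.4% and 40.6% of the gained regions, in 4%, 8.74% and 14.5% of the lost regions, and in 5.07%, 9.92% and 19.5% of the regions of all 4 lists. The gained regions were higher in every class. For AP-1 the gained regions gave 37.1%, 39.7% and 35.7%, against 19.2%, 21.9% and 15.5% in the lost regions.

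κB and AP-1 matches occurred together in 156 gained regions (8.15%, 7.01 to 9.47) and in 1.64% of the lost regions (0.891 to 2.99). The joint share was 3.34% in the regions of all 4 lists (2.85 to 3.9) and 11.4% in the wide gained regions (9.24 to 14). Joint shares rise with the single ones, which in the gained regions were 25.8% for κB and 37.6% for AP-1. Whether the 2 motifs were paired beyond these shares was not tested. At least 1 of the 2 motifs was in 1057 gained regions (55.3%), and 856 (44.7%) held neither in the window. Of the gained regions, 94 (4.91%, against 9.67% of the wide ones) held 2 or more κB sites and 171 held 2 or more AP-1 sites. Among the 621 κB sites of the gained regions, the most common sequence, read with GGG first, was GGGACTTTCC, the classical site of the immunoglobulin κ enhancer. It was in 2.77% of the gained regions and 0.734% of all narrow distal regions. GGGGATTTCC followed, in 1.93% and 0.532%.

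Other factors gave smaller differences. The motif TTGCNNAA of C/EBP proteins was in 47.5% of the gained regions (45.3 to 49.8) and 35.7% of the lost regions. It was in 43.4% of those in all 4 lists and 42.8% of all narrow distal regions. AGATAA, bound by GATA factors such as the luminal regulator GATA3, was in 44.6% of the gained regions (42.4 to 46.8) and 32.2% of the lost regions. It was in 41.7% of those in all 4 lists and 43.9% of all narrow distal regions (43.3 to 44.5). The gained regions were thus level with all narrow distal regions for GATA, and the lost regions were lower. These 2 motifs are rich in A and T, and in the low, middle and high GC class the GATA motif was in 54.3%, 44.3% and 32.1% of gained and in 52.8%, 36.1% and 21.5% of lost regions. In the regions of all 4 lists the GATA shares were 55.2%, 46.9% and 26.7%. For C/EBP the classes gave 56%, 45.9% and 38.4% of gained and 50.4%, 39.3% and 27.4% of lost regions. In the regions of all 4 lists they gave 54.3%, 45.2% and 33.5%. In the high class the intervals of gained and lost regions did not overlap for either motif. GCCNNNGGC, bound by AP-2 factors such as TFAP2A, was less frequent in the gained regions (22.3%, 20.5 to 24.2) than in the lost regions (35%) or those in all 4 lists (30.3%), and so was the GC box GGGCGG (15.2% against 26.8% and 21.7%). Both are rich in G and C, and the gained regions had the lowest median GC content of these sets. Shares by GC class were not taken for these 2 motifs. The forkhead motif TGTTTAC was in 18.2%, 18.8% and 22.8%, TEAD's GGAATG in 53.1%, 49.3% and 52.1%, and RUNX's TGTGGTT in 19.6%, 17.7% and 18.2% of the gained, lost and all-list regions. The grainyhead motif AACCNGTT was in 10.6%, 7.36% and 9.55%, the ETS core CCGGAA in 8.31%, 11.9% and 11.6%, and the MAF/NRF2 motif in 14.3%, 13.4% and 15.2%.

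**Figure D3:**
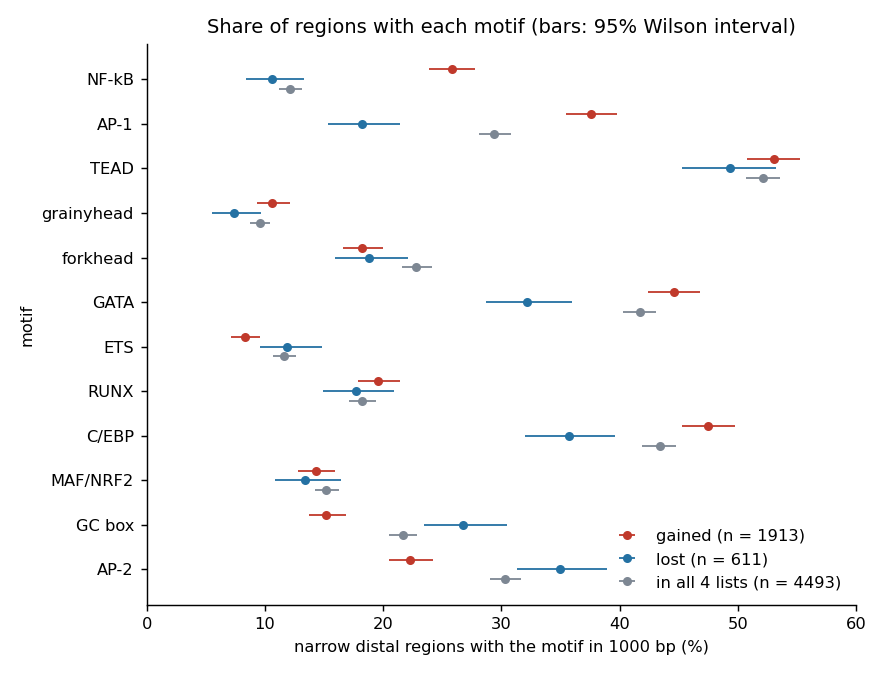
Percent of narrow distal regions with each of 12 motifs in the 1000 bp window, for gained, lost and all-list regions, with 95% Wilson intervals. The κB and AP-1 motifs show the widest separation of gained from lost regions, and AP-2 and the GC box lie the other way.

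How strong the gained peaks were is described by the values the authors' peak caller gave, as all members were selected on being called at all in both TWEAK lists. Fold enrichment over background had a median of 2.99 in TWEAK replicate 1 (lower to upper quartile 2.78 to 3.34, highest 11.7) and of 3.26 in TWEAK replicate 2 (2.84 to 3.85, highest 15.2). The medians of the whole lists were 4.01 and 3.96. The gained regions were thus mostly weak peaks of their lists. Ranked by −log10 q within its own list, the median gained region stood at the 20th percentile in TWEAK replicate 1 and at 32.4 in TWEAK replicate 2. The mean percentile over both lists had a median of 26.1 and ran from 0.472 to 91.1. Only 80 regions (4.18%) had a q-value under 1e-05 in both lists, 1495 (78.1%) had it in neither, and 1039 (54.3%) had a q-value above 0.01 in at least 1 list.

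The 2 TWEAK libraries did not rank the regions equally. TWEAK replicate 2, which listed the most peaks (51687, against 45371 in TWEAK replicate 1 and 45157 and 43684 in the untreated lists), ranked 1315 of the gained regions (68.7%) higher than TWEAK replicate 1 did. Above the middle of both lists lay 91 regions (4.76%). The κB motif was in 20.3% and 17.2% of the lower 2 of 4 equal classes of regions by mean percentile and in 30.3% and 35.4% of the upper 2, at median GC contents between 43.3% and 43.9%. For AP-1 the 4 classes gave 33%, 41.2%, 35.1% and 41.2%, with no such order. The rule run only on peaks of q under 1e-05 gave 399 regions, of which 26.3% held the κB motif (22.2 to 30.8). That share was near the 25.8% of all gained regions, and only 80 of the 1913 gained regions were among the 399.

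**Figure D4:**
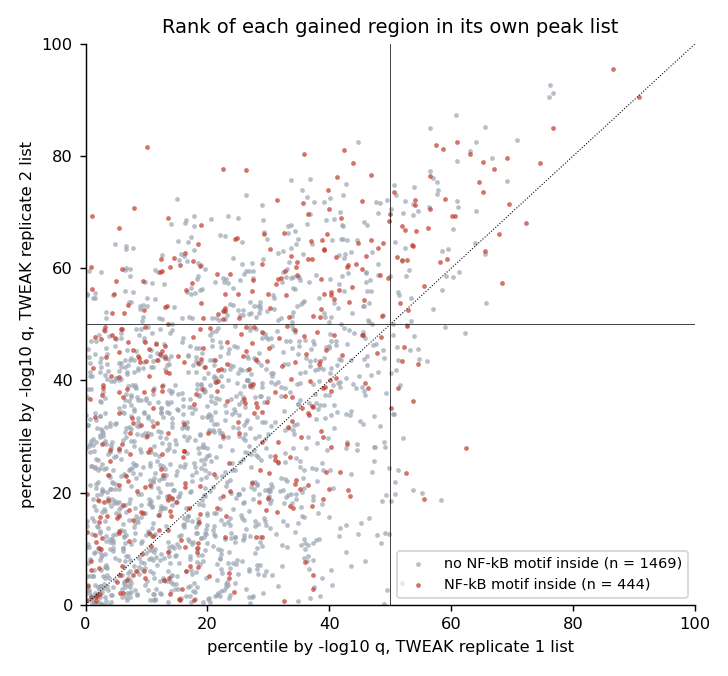
Each point is 1 of the 1913 gained regions, placed by the percentile of its −log10 q among the peaks of the TWEAK replicate 1 list (x axis) and of the TWEAK replicate 2 list (y axis). Red points (n = 444) have a κB motif inside the region, the dotted line marks equal ranks, and most points lie in the lower left, with 1315 above the dotted line.

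The limits of the rule cut through a continuum. The widest members were 1499 bp (nearest to CXCL12) and 1497 bp (GULP1), and gained regions of 1500 bp nearest to ADAM22, CACUL1 and TSHZ2 fell just outside. The members closest to a TSS were 1052 bp (SLC45A4) and 1076 bp away (SUCLA2 and CPNE5), and gained regions 963 bp (OAZ2) and 950 bp (RPS6KA4) from a TSS fell just outside.

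The width of the gained regions had a median of 924 bp and ran from 239 bp upwards. By position, 886 (46.3%) lay in introns of protein-coding genes, 877 (45.8%, 43.6 to 48.1) outside such genes, 123 (6.43%) over a coding exon and 27 (1.41%) over another exon. Among all narrow distal regions 39.4% lay outside protein-coding genes (38.8 to 40) and 50.7% in introns, and among the lost regions 36.8% (33.1 to 40.7) lay outside. The gained regions were thus more often outside protein-coding genes than either set, at the share of the regions in all 4 lists (46%, 44.5 to 47.4). The nearest protein-coding TSS was a median of 38.6 kb away, and more than 100 kb away for 495 regions (25.9%).

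How near the gained regions stood to untreated peaks was also counted, without the same share over all narrow distal regions. A peak of an untreated list was no more than 5 kb away for 627 of them (32.8%, 30.7 to 34.9), no more than 1 kb away for 80, and no more than 10 kb away for 960 (50.2%). Seen from the other side, 46.2% of the lost regions (42.2 to 50.1) had a TWEAK peak within 5 kb and 63.5% within 10 kb. Fewer gained than lost regions were therefore next to a peak of the opposite treatment. The TWEAK lists together hold more peaks than the untreated lists, and their part in this difference was not tested. The κB motif was in 24.7% of the gained regions with an untreated peak within 5 kb and in 26.3% of the others, and the AP-1 motif in 32.1% (28.5 to 35.8) and 40.4% (37.7 to 43.1). Another narrow gained region lay within 10 kb of 102 gained regions (5.33%), and a wide one within 10 kb of 46 (2.4%). The same shares were not taken for other regions.

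**Figure D5:**
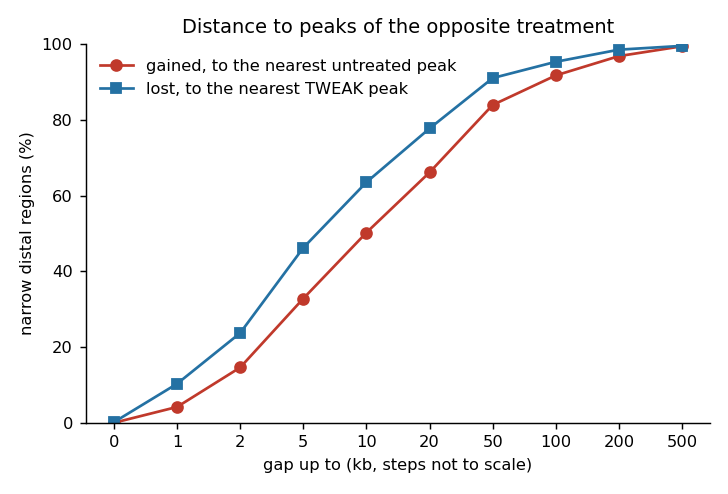
Percent of the 1913 gained regions with an untreated peak up to a given distance (red), and of the 611 lost regions with a TWEAK peak up to that distance (blue). Distances on the x axis are in kb and the steps are not to scale, and at 10 kb the curves stand at 50.2% and 63.5%.

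The highest-ranking gained region lay 71.2 kb from FAM205C (chromosome 9, 34823203 to 34824543), outside any protein-coding gene. Its percentiles were 86.6 and 95.5 in TWEAK replicates 1 and 2, and its fold enrichments 10.4 and 15.2, with 2 κB matches inside and no untreated peak for 155855 bp. The second was an intron of DNM3, which encodes a dynamin GTPase of membrane traffic (chromosome 1, 172024335 to 172025485), at percentiles 90.8 and 90.5 and fold enrichments 11.7 and 10.4. Both stood near the top of both lists, in contrast to most gained regions. The region nearest to ZNF32, a zinc finger gene (76.8 and 84.9), and the region nearest to PRELP, a small leucine-rich matrix proteoglycan (69.1 and 79.6), also held κB matches. An intron of IL21R, the receptor of the cytokine IL-21, stood at 74.7 and 78.7 and held 1 κB and 2 AP-1 matches 4.7 kb from a TSS.

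The other regions of the top 10 were nearest to TRPS1, ZNF704, COPS8, TRIB1 and DNAH17. TRPS1 encodes a GATA-type repressor of luminal breast cells, and its region, 626 kb away, had percentiles of 76.2 and 92.8 at fold enrichments of only 3.02 and 4.59. ZNF704, a zinc finger gene, had an intronic region with 76.7 and 91.2 at fold enrichments of 2.88 and 4.06. In TWEAK replicate 1 both fold enrichments were under the median of that list (4.01), although both regions ranked high by q-value. Both lie on chromosome 8, as do the regions nearest to MYC described below, and why rank and fold differed there was not tested. The region nearest to COPS8, a subunit of the COP9 signalosome, stood at 76 and 90.6. That nearest to TRIB1, a pseudokinase gene, stood at 70.8 and 82.8, and an intron of DNAH17, an axonemal dynein heavy chain, at 65.6 and 85.2. Of the 10, 5 held a κB match inside the region and 3 an AP-1 match, 8 had no untreated peak within 10 kb, and 9 had no peak in any MDA-MB-453 list. Over all gained regions, 23.2% held a κB match inside and 33.4% an AP-1 match. An untreated peak lay within 10 kb of 50.2%, and 83.4% had no MDA-MB-453 peak, beside 77.9% of all narrow distal regions.

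The 10 highest regions with a κB match inside were the 5 above and 5 more, of which 3 were intronic. One lay in CHRNA7, a nicotinic receptor subunit, at percentiles 67 and 77.7. Another lay in SGK1, a kinase induced by serum and glucocorticoids, at 65.2 and 78.9, and a further one in ARNT2, a bHLH-PAS transcription factor, at 61 and 82.5. The remaining regions were outside protein-coding genes. The region nearest to CAMK2N1, an inhibitor of calcium/calmodulin kinase II, stood at 63.1 and 80.4, and that nearest to SEPTIN10, a septin, at 69.6 and 71.4. The ARNT2 region held 3 κB matches and the CAMK2N1 region 2. All 10 of these regions had a q-value under 1e-05 in both TWEAK lists.

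Genes were assigned by the nearest protein-coding TSS, which says nothing about which gene a region regulates. The gained regions had 1585 nearest genes, or 7.94% of the 19962 protein-coding genes, and 15.8% of the 10024 genes that were nearest to any narrow distal region. Most of these genes (1341) had 1 gained region. In the NF-κB signalling list, 5 of 32 genes were nearest to a gained region, which is 22.7% of the 22 with a narrow distal region. In the list of NF-κB target genes it was 9 of 40, or 30% of the 30 with one. Of all narrow distal regions assigned to these 2 lists, 7.58% of 66 and 11.7% of 77 were gained, beside 6.56% over all genes. These are counts of few genes and are given without a test. They also rest on the assignment: by the nearest TSS of any gene type, 5 of the 72 genes of both lists together were nearest to a gained region, instead of 14.

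Among the NF-κB target genes, CSF1, the macrophage growth factor, had the highest-ranking region, 32.8 kb away (percentiles 42.2 and 67.5 in TWEAK replicates 1 and 2). S100A8, a calcium-binding alarmin, had a region 4.86 kb from its TSS (39.7 and 66.1), and ICAM1, an adhesion receptor for leukocytes, one at 5.1 kb (39.1 and 63.5). Both regions hold the κB match printed above, GGGAATTTCC and GGGAATTCCC. The apoptosis inhibitor BCL2A1 had an intronic region 4.32 kb from its TSS with 1 κB match (45.9 and 39.6). Other target genes had a region within 10 kb of a TSS without a κB or AP-1 match. These were SELE, which encodes E-selectin (27 and 49.6), the chemokine gene CCL2 (25.3 and 42.1) and the caspase inhibitor XIAP (10.7 and 27.3). The stress gene GADD45B (3.15 and 29.3) and NAMPT, the enzyme of NAD salvage (2.96 and 28.8), had weak regions 76.6 and 132 kb away, and the NAMPT region had a peak in all 4 MDA-MB-453 lists.

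Of the signalling genes, TNIP1, a partner of A20 that restrains NF-κB, had a region over an exon of ANXA6 (43 and 59.1). The region nearest to the NF-κB subunit REL stood at 43.6 in both lists, 21.9 kb away. An intron of TRAF3, the adaptor that holds the non-canonical branch in check, had a region of 471 bp with 1 κB match (37.2 and 17.7), and an intron of the kinase gene IKBKE one at 17.3 and 20.2. TNFAIP3, which encodes A20, had a region 157 kb away with an AP-1 match (6.62 and 29.9). In all, 5 of the 14 regions at NF-κB genes held a κB motif in the window, beside 25.8% of all gained regions. Of the 14, 13 had no MDA-MB-453 peak, beside 83.4% of all gained and 77.9% of all narrow distal regions. None of the 14 had a q-value under 1e-05 in both lists. Their mean percentiles ran from 15.9 to 54.9, and 9 of 14 were above the median of the gained regions.

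Of the 15 AP-1 family genes only FOSL2 was nearest to a gained region, and that region was weak (6.98 and 4.77). In the list of ERBB receptors and ligands it was 4 of 16 genes (36.4% of the 11 with a narrow distal region), and all 4 were ligands of the EGF family. These were EGF, with an intronic region at 36.7 and 57.6 that held an AP-1 match, AREG (10.9 and 57.3), BTC (22.4 and 22.9) and EREG (1.22 and 0.661). AREG, EREG and BTC are neighbours in 1 gene cluster on chromosome 4, so these are not independent loci. In the luminal list 5 of 18 genes had 11 gained regions: GATA3 (3), KLF4 (4), PRLR (2), SPDEF and TFAP2A. The best of them lay 573 kb from GATA3, at 52.1 and 69.8, and all 4 MDA-MB-453 lists had a peak there as well. In the list of migration, adhesion and matrix genes 5 of 32 genes had a gained region, of which the strongest was nearest to TWIST1, a mesenchymal transcription factor, inside an intron of HDAC9 (60.6 and 69.4, with 1 κB and 2 AP-1 matches). An intron of CDH2 (N-cadherin) stood at 52.9 and 52.5 with 1 match of each kind, 191406 bp from the nearest untreated peak. TNC (tenascin C) had 3 regions, the best at 32.3 and 63, and ITGB1 (38.4 and 35.7) and THBS1 (2.38 and 41.5) had 1 each. Of the narrow distal regions of these 4 lists, 3.85%, 11.1%, 7.19% and 8.64% were gained, beside 6.56% over all genes. Of the listed genes with a narrow distal region, 10%, 36.4%, 27.8% and 22.7% were nearest to a gained one, beside 15.8% over all genes. These shares rest on few genes and were not tested.

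The genes nearest to the most gained regions were ITPR1, KLF6 and MYC with 6 each, followed by JAG1 and PTTG2 with 5, a number that TBL1XR1 reached too. The 6 of MYC were among 36 narrow distal regions (16.7%), the 6 of KLF6 among 30 (20%), the 6 of ITPR1 among 18 (33.3%), and the 5 of JAG1 and of PTTG2 among 12 each (41.7%). These shares stand beside 6.56% over all narrow distal regions, and the genes were picked for their number of gained regions. The regions nearest to MYC lay 250 to 455 kb from it, and the highest stood at 64 and 64.5 with fold enrichments of 2.54 and 2.5. None of these 6 held a κB motif and 1 held an AP-1 motif. JAG1, a Notch ligand, differed in that 3 of its 5 regions held a κB motif, the best of them 280 kb away at 22.5 and 77.7. KLF6, a zinc finger factor, had 4 of 6 regions with an AP-1 motif. ITPR1, the IP3 receptor of calcium release, had a region at 58.5 and 56.1 in an intron, and PTTG2, a securin-related gene, one at 41.5 and 53. By chromosome, the share of narrow distal regions that were gained ran from 2.98% on chromosome 19 to 8.92% on chromosome 8.

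Whether the gained regions responded in the other HER2 line was tested with the MDA-MB-453 lists, which took no part in the choice. A peak lay in 253 and 271 of the regions in the untreated lists and in 263 and 260 in the TWEAK lists. The TWEAK values lay between the untreated ones, and the mean difference was −0.5 regions (two-sided exact permutation test over 6 assignments, p = 1, smallest possible p = 0.33), so a difference could not have passed a threshold of 0.05 in this design. Only 8 of the gained regions (0.418%) were gained in MDA-MB-453 too, beside 0.326% of all narrow distal regions. They include regions nearest to ISX (47.7 and 71.8 in the SKBR3 lists), in introns of SASH1, MLIP and MCF2L2, and near ANKRD46.

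At least 1 MDA-MB-453 list had a peak in 318 of the gained regions (16.6%), fewer than the 22.1% of all narrow distal regions and the 40.3% of those in all 4 SKBR3 lists. All 4 lists had one in 216, and these regions had a lower κB share and a lower GC content than those without any. The κB motif was in 28% (25.9 to 30.3) of the 1595 gained regions without any MDA-MB-453 peak and in 11.6% (7.96 to 16.5) of the 216, at a median GC of 44.1% and 40.8%. The same contrast over all narrow distal regions was 14.8% against 9.55%. The contrast was not taken by GC class. Of all gained regions in the low GC class (up to 41.6%), 14.8% held the κB motif. AP-1 showed no such split, with 38% and 36.1%.

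The same rule applied to the MDA-MB-453 lists gave 484 gained and 492 lost narrow distal regions. The κB motif was in 18.6% of those gained (15.4 to 22.3), 7.32% of those lost (5.33 to 9.96) and 9.54% of all 18001. The AP-1 motif was in 26.2% (22.5 to 30.3), 21.3% (18 to 25.2) and 23.9%, with intervals that overlapped. Gains and losses were thus of like number there, unlike in SKBR3, whereas the κB motif was again more frequent in the gained regions. The MDA-MB-453 lists held between 36148 and 37813 peaks, and the SKBR3 lists between 43684 and 51687. Cut to equal length, the SKBR3 lists gave 1380 narrow distal gained regions, and lost regions were not counted at that setting. The part of list length in the contrast between the lines was not tested.

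As a check on the cells, TSS peaks were found for 9 of 10 genes of luminal HER2 breast cells in every SKBR3 list and for 10 of 10 in every MDA-MB-453 list. CDH1 was without one in the SKBR3 lists. Of 8 genes of blood, endothelial and fibroblast cells, COL1A1 had a TSS peak in all 8 lists and the other 7 had none.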

How the data were processed

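The authors aligned H3K27ac ChIP-seq reads to hg38 with Bowtie2 and called peaks per library with MACS2 against input, leaving out blacklisted regions (versions and calling options not given in the sources used here). Each deposited list has 9 columns, as for broad peaks, with a score, a fold enrichment (ratio over background) and −log10 p and q. The deposited −log10 q was used to rank peaks within their own list (percentile, ties shared), the deposited fold to describe them, and the score not at all. The 2 inputs have no list. The regions and gene lists were chosen with earlier results of these data known. Lists were merged with Python 3.11.15, and counts got 95% Wilson intervals (scipy 1.17.1). Motifs were searched in hg38 with pysam 0.24.0, overlapping matches counted. The code was tested on simulated lists. Regions named are the 10 highest by mean percentile, the 10 highest with a κB match inside, all at NF-κB genes, up to 5 gained in both lines, those at the 5 genes with most regions, and those at the limits. Regions at genes of the other lists were named too, which had not been planned. The lists cover NF-κB signalling, NF-κB targets, AP-1, ERBB, luminal, and migration, adhesion and matrix genes. The study's read-based comparison was not repeated. Peaks on other chromosomes were left out.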

Additional observations from a re-analysis of the deposited data

How the results depend on the processing

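Presence or absence turns on the caller's threshold, and p-values measure only the spread between libraries. The 1913 gained regions became 399 with peaks of q under 1e-05 only, 80 of the 1913 being among them, 1110 at widths under 1000 bp, and between 3070 and 8942 when 1 SKBR3 list was left out (8942 and 4956 on leaving out the first or the second TWEAK list, and 3070 and 3121 for the untreated lists). Other rules gave 1380 to 2300, and peaks that had to cover 50% of a region left 61.1% of the regions. The κB share was 18.1% in 500 bp, 23.2% in the region itself, 30.5% with a looser and 8.15% with a stricter motif, against 6.06%, 8.51%, 19.3% and 1.15% in the lost regions, and 18.8% to 21.8% with 1 list left out. At q under 1e-05 the κB share was 26.3%. The AP-1 share was 26.8% in 500 bp, 33.4% in the region itself, 43.9% at q under 1e-05, and 29.3% to 37.7% with 1 list left out. The shares by GC class, by combination of lists and by distance from the midpoint were added after the data were seen. An untreated peak lay within 2 kb of 280 regions and within 10 kb of 960, instead of 627 within 5 kb. By the nearest TSS of any gene type, 5 of the 72 genes of the NF-κB lists were nearest to a gained region, instead of 14. In MDA-MB-453 the difference was 4.5 regions where peaks had to cover 50% of a region (exact permutation p = 1) and ran from −9.5 to 8.5 with 1 list left out. With the replicate block, an exact sign-flip test over 2 pairs, it was −0.5 (p = 1). With 2 lists per group, no group could be tested for an outlying library.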
